A study of Mus musculus with 87 samples.

Results

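Mouse 2-cell (2C) embryos that received both knockdown oligonucleotides and Obox4 mRNA, labelled as the rescue group, were compared with embryos that received a scramble oligonucleotide, to see which genes and repeats remained changed and which changed newly after Obox4 mRNA. The comparison held 4 of the 87 samples of the series, 2 rescue-labelled and 2 scramble libraries, taken by their sample labels. Every library of the experiment came from 30 middle 2C embryos collected 20 h after microinjection, and the labels give 2 independent biological replicates a group, which are the libraries used here. The embryos were wild type offspring of 8-week-old B6D2F1 (BDF1) females mated with BDF1 males. PN3 zygotes were collected 22 h after hCG and injected in the male pronucleus after 4 h in culture. Scramble embryos received 40 µM of a scramble antisense oligonucleotide (ASO). Rescue-labelled embryos received 40 µM of the Dux and Obox4 ASOs in equal parts with 100 ng/µL codon-optimised Obox4 mRNA. The double knockdown (DKD) group received the same 40 µM of both ASOs without mRNA, and the Dux KD and Obox4 KD groups received 20 µM of a single ASO. The added mRNA carries altered codons and lacks the ASO motif, so the Obox4 rows of the gene table do not measure it. RNA was read as stranded whole-embryo libraries, in which a gene lower in every embryo and a gene lost from some embryos cannot be told apart.

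At the 2C stage the mouse embryo degrades maternal RNA and transcribes its own genome in zygotic genome activation (ZGA). DUX and OBOX4 are homeodomain transcription factors present around that time. DUX is known for activating 2C genes, among them the Zscan4 cluster, and the endogenous retrovirus MERVL with its long terminal repeat MT2_Mm.

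The rescue-labelled libraries were the deepest, with 69461986 and 53821827 gene counts against 35999687 and 26148176 in the scramble libraries, and 24673 and 22552 genes reached 10 counts against 19746 and 18426. They stood apart from the other 8 libraries on the second principal component (12.1% of the variance), at -44.3 and -47.1 against -13.1 to 36.7 elsewhere. On the first component (40.3%) they were at -9.36 and -3.002, between the scramble libraries at 61.3 and 67.6 and the DKD libraries at -77.9 and -65.6. The part of depth in the results below was not tested beyond scaling each library to its total (CPM, TMM-scaled read counts relative to library size).

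The ASOs are 20-base gapmers with 19 phosphorothioate bonds, and they are shown because the position of their sites decides which rows report the knockdown. Capitals mark the 5 2'-O-methoxyethyl bases of each wing around the 10-base DNA gap.
ASO_scramble: AGCGCgggtattgaaCCAGG
ASO_Dux: GATTCctgcggttctGAAAC
ASO_Obox4: ACTTGattgcagtggACGTG
Among 141767 annotated transcripts of GRCm38, the Dux ASO matched without mismatch 2 genes, Duxf3 (chr10:58232462-58232481, minus strand, coding exon 1 of 1) and the Dux-like AW822073 (chr10:58224783-58224802, minus strand). The Obox4 ASO matched without mismatch 11 Obox4 copies on chromosome 7. The scramble ASO had its nearest match, with 3 mismatches, in the lincRNA Gm38661. The sites read 5' to 3' as follows, with bases that differ from the motif in capitals.
Duxf3 and AW822073: gtttcagaaccgcaggaatc
Obox4-ps27 and Obox4-ps31: cacgtccactgcaatcaagt
Obox4-ps29: caTgtccactgcaatcaagt
The Obox4-ps27 site lies at chr7:15431798-15431817 and the Obox4-ps31 site at chr7:15589788-15589807, both on the plus strand in exon 1 of 3 of an unprocessed pseudogene annotation. Counted from the 5' end of the motif, Obox4-ps29 (chr7:15454458-15454477) carried the substitution C3T.

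Duxf3, the annotated Dux gene, was not lower in the rescue-labelled libraries than in scramble, although the label states that the Dux ASO was injected. Duxf3 was at 6.49 and 7.68 CPM in the scramble libraries, 3.86 and 2.92 in the DKD libraries, 3.66 and 1.93 in the Dux KD libraries and 8.16 and 5.78 in the rescue-labelled libraries. The scramble and rescue-labelled libraries overlapped, and the DKD and Dux KD libraries were lower than both. The log2 fold change from scramble was -0.02 ± 0.25 (SE; edgeR, adjusted p = 0.98) in the rescue-labelled libraries and -1.04 ± 0.27 (adjusted p = 0.0056) in DKD, and the direct difference between rescue-labelled and DKD libraries was 1.03 ± 0.26 (adjusted p = 0.0068). AW822073, which holds the same site, was at 10.0 and 13.0 CPM in scramble, 6.85 and 7.28 in DKD and 13.8 and 9.93 in the rescue-labelled libraries (0.06 ± 0.21, adjusted p = 0.91). The repeat table also holds gene rows, in which multi-mapping reads count in fractions and reads that overlap a gene and a repeat may be assigned differently, by a rule not given in the sources used here. A difference from the unique counts can come from either. In those rows Duxf3 was at 12.8 and 16.3 CPM in scramble and 20.3 and 11.9 in the rescue-labelled libraries. Duxf3 RNA in these libraries thus did not show the Dux knockdown that their label states. In mESCs the paper found that Dux and Obox4 each raised the expression of the other. Whether the added Obox4 mRNA raised Duxf3 here was not tested. Every direction given below is that of the libraries labelled rescue.

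The Obox4 reading followed the label. The 11 Obox4 copies with an exact ASO site summed to 4.68 and 9.08 CPM in scramble, 0.203 and 0.393 in DKD, 0.519 and 0.367 in Obox4 KD and 0.975 and 0.793 in the rescue-labelled libraries. The 7 copies with 1 mismatch summed to 4.47 and 4.64 CPM in scramble, 0.122 and 0.295 in DKD and 0.617 and 0.434 in the rescue-labelled libraries. In both sets the rescue-labelled libraries were below scramble and above DKD, without overlap. The same exact-site copies were also low in the Dux KD libraries, at 1.62 and 0.557 CPM, which did not receive the Obox4 ASO. These copies are near-identical, and the division of reads among them is uncertain.

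Of the 39 annotated Obox4 rows 11 passed the low-count filter, and Obox4-ps27, Obox4-ps29 and Obox4-ps31 were lower in the rescue-labelled libraries than in scramble. Obox4-ps27 was at 1.77 and 3.08 CPM in scramble and 0.143 and 0.227 in the rescue-labelled libraries (-3.71 ± 0.56, adjusted p = 0.00035). Obox4-ps29 fell by 3.33 ± 0.63 and Obox4-ps31 by 2.78 ± 0.57 on the log2 scale, and both calls were lost when scramble replicate 1 (-3.22 and -3.15), scramble replicate 2 (-3.42 and -2.30) or rescue-labelled replicate 1 (-3.02 and -2.97) was left out, that of Obox4-ps31 also without rescue-labelled replicate 2 (-2.62). Most reads came from Obox4-ps35, which has no site within 3 mismatches in an annotated transcript. It was at 56.2 and 58.4 CPM in scramble, 42.0 and 39.1 in DKD, 64.0 and 80.4 in Obox4 KD and 28.0 and 35.7 in the rescue-labelled libraries. The rescue-labelled libraries held the lowest Obox4-ps35 values of all groups (-0.85 ± 0.12 against scramble, adjusted p = 0.00018), short of the 2-fold threshold.

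**Figure D1:**
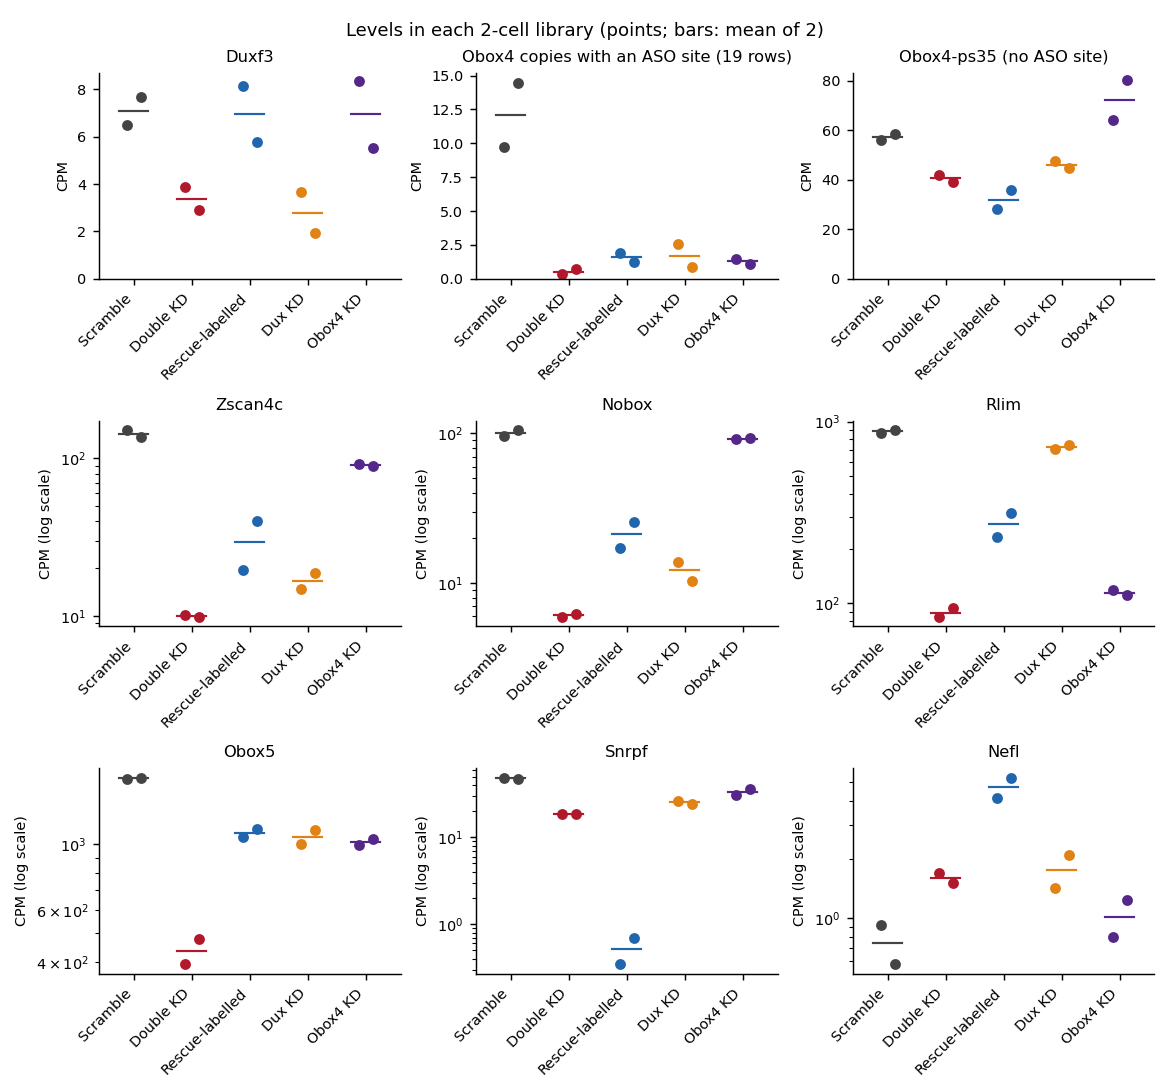
CPM in each of the 10 2C libraries for Duxf3, the 19 Obox4 rows with an ASO site of at most 2 mismatches (summed), Obox4-ps35 and 6 other genes; points are libraries and bars the mean of 2, the first 3 panels have a linear axis from 0 and the others a log axis. Duxf3 in the rescue-labelled libraries (8.16 and 5.78) lay at the scramble level (6.49 and 7.68), whereas Snrpf (0.344 and 0.698 against 48.6 and 46.9) and Nefl (4.16 and 5.29 against 0.918 and 0.575) lay far from it.

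Other near matches of the ASOs were of 3 mismatches. The Obox4 ASO matched Obox6 on chromosome 7 (chr7:15834767-15834786, minus strand, coding exon 2 of 3), which was at 66.8 and 52.6 CPM in scramble, 47.2 and 48.5 in DKD and 33.4 and 37.5 in the rescue-labelled libraries (-0.76 ± 0.11, adjusted p = 0.00025). Gnptab, matched in a coding exon, was at 28.6 and 27.04 CPM in scramble and 19.12 and 23.7 in the rescue-labelled libraries (-0.38 ± 0.13, adjusted p = 0.068). Its lowest values were those of the Obox4 KD libraries, at 12.1 and 14.47 CPM. Gnptab was at 24.49 and 21.31 CPM in DKD and 31.15 and 33.58 in Dux KD. The part of the ASO site in these levels was not tested. The Dux ASO matched Muc16 and Themis2, which were not called (-0.33 ± 0.24 and 0.16 ± 0.44). None of these 4 genes passed the 2-fold threshold between the rescue-labelled and scramble libraries.

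Of 23085 genes tested, 616 (2.67%) differed between the rescue-labelled and scramble libraries at an adjusted p of at most 0.01 and at least 2-fold, 330 (1.43%) higher and 286 (1.24%) lower. The 2 groups did not overlap for any of the 616, and they did not overlap for 12114 of all 23085 genes. In DKD against scramble 2673 genes (11.6%) were called, 1944 (8.42%) higher and 729 (3.16%) lower, and 1624 without DKD replicate 1. Of the 616 genes, 517 had been called in the same direction in DKD and are termed stayed changed, 312 higher and 205 lower. The other 99 were called in the rescue-labelled comparison only and are termed newly changed, 18 higher and 81 lower. The term refers to the calls alone. In DKD against scramble 92 of the 99 had the same sign, and 64 also had an unadjusted edgeR p under 0.05. The comparisons share the scramble libraries, so these counts describe the calls and were not tested as an overlap. The count of 616 fell to 321 without scramble replicate 1, to 379 without scramble replicate 2 and to 296 when only the 4 libraries were fitted, was 460 without rescue-labelled replicate 1 and rose to 728 without rescue-labelled replicate 2.

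Among the genes called in DKD, a call was more often absent than present in the rescue-labelled libraries, but absence of a call was mostly not a tested return. Of the 1944 genes higher in DKD, 16.0% stayed changed and 84.0% were not called, while 451 (23.2%) were not called and also lower than DKD in the direct test. Of the 729 genes lower in DKD, 28.1% stayed changed, 71.9% were not called, and 150 (20.6%) were not called and also higher than DKD in the direct test. That direct test, rescue-labelled against DKD, called 1008 genes (4.37%), 253 (1.1%) higher and 755 (3.27%) lower, and 466 without DKD replicate 1. The median log2 change of the 312 higher genes was 1.70 against 2.63 in DKD, and that of the 205 lower genes that stayed changed was -1.53 against -2.02. For 160 of the 517 genes the direct test called a move toward scramble, and for Snrpf and B230303O12Rik it called a move further away. For B230303O12Rik the scramble libraries were at 34.1 and 21.1 CPM by unique reads but at 0.184 and 0.164 CPM in the gene rows of the repeat table, where it was not called (-0.82). The cause of this difference was not tested.

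**Figure D2:**
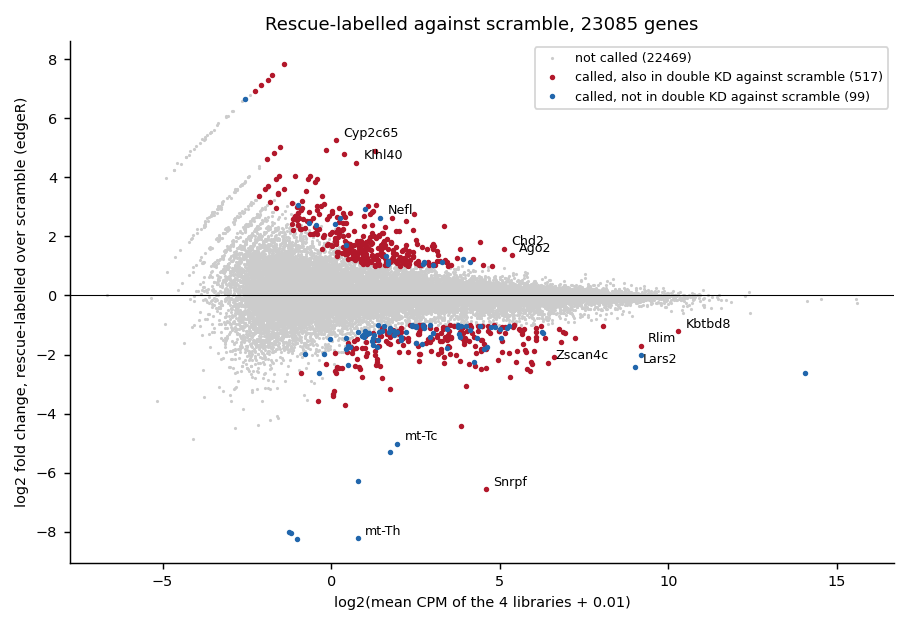
Log2 fold change of the rescue-labelled over the scramble libraries (y axis) against the log2 mean CPM of the 4 libraries plus 0.01 (x axis) for 23085 genes; red points stayed changed (517), blue points were newly changed (99) and grey points were not called (22469). Newly changed genes lie mostly below 0 (81 of 99), with the mitochondrial tRNA genes mt-Th (-8.23) and mt-Tc (-5.02) at the lower end, where Snrpf (-6.56), which stayed changed, also lies.

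The Zscan4 genes, which encode 2C-specific zinc finger proteins involved in telomere and genome stability, stayed lower in the rescue-labelled libraries, at levels above DKD. All 6 members tested were lower than scramble (median log2 change -2.31, median of all genes 0.03), all 6 were lower in DKD (median -3.91), and all 6 were higher in the rescue-labelled libraries than in DKD. The matching shares over all genes were 1.24%, 3.16% and 1.1%. Zscan4c (chr7:11005745-11010547, plus strand) was at 152 and 136 CPM in scramble, 10.0 and 9.83 in DKD, 14.7 and 18.6 in Dux KD and 19.4 and 39.8 in the rescue-labelled libraries. No group overlapped another, and Zscan4c in scramble was 4.88-fold the rescue-labelled mean (-2.29 ± 0.21, adjusted p = 1.8e-06, against scramble, and 1.57 ± 0.22, adjusted p = 4.7e-05, against DKD). Zscan4b was the member furthest below scramble, at 72.9 and 63.3 CPM in scramble, 3.15 and 3.64 in DKD and 6.35 and 14.1 in the rescue-labelled libraries (-2.75 ± 0.25). Zscan4d was the nearest, at 176 and 172 CPM in scramble, 24.8 and 28.6 in DKD and 59.6 and 84.9 in the rescue-labelled libraries (-1.27 ± 0.14). In each of the 6 genes rescue-labelled replicate 2 was above replicate 1, and the 6 calls remained under each of 10 alternative settings, which included the gene rows of the repeat table. The summed level of the 6 genes was 785 and 699 CPM in scramble, 66.6 and 69.7 in DKD and 136 and 238 in the rescue-labelled libraries.

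Eif1a-like genes, copies related to the translation initiation factor eIF1A that mark the 2C stage, showed the same order of groups. All 7 members tested were lower in the rescue-labelled libraries than in scramble (median -1.59), all 7 were lower in DKD (median -2.71), and 5 were higher than in DKD by the direct test. The matching shares over all genes were 1.24%, 3.16% and 1.1%. Gm5662 was at 165 and 173 CPM in scramble, 23.8 and 28.0 in DKD and 47.3 and 65.4 in the rescue-labelled libraries (-1.59 ± 0.12, adjusted p = 2.0e-07). Gm5039 was at 89.6 and 82.1 CPM in scramble, 7.34 and 6.52 in DKD and 18.4 and 27.1 in the rescue-labelled libraries (-1.92 ± 0.14). Both genes were between the other 2 groups without overlap. The count was 6 without rescue-labelled replicate 1 and 7 in the other alternatives.

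Of the other 2C gene families some members were called, and the counts moved with single libraries. The shares called lower were 40% of the Usp17l, 20% of the Tdpoz, 12.5% of the PRAME-like and 15.7% of the remaining 2C genes. Over all genes the share was 1.24%. Of 5 Usp17l deubiquitinases, Usp17la and Usp17le were lower than scramble, Usp17le at 62.7 and 79.5 CPM in scramble, 24.3 and 19.3 in DKD and 24.0 and 33.9 in the rescue-labelled libraries (-1.30 ± 0.16, adjusted p = 4.0e-05), and 4 of the 5 were lower without rescue-labelled replicate 2. Of 5 Tdpoz genes only Tdpoz3 was called lower (-1.40 ± 0.23), a call lost without rescue-labelled replicate 1 (-0.996), while 3 were called without rescue-labelled replicate 2. Of 16 PRAME-like genes Pramef6 (-1.95 ± 0.17) and Pramef25 (-1.11 ± 0.15) were lower, the latter not without scramble replicate 1 (-0.98) or rescue-labelled replicate 1 (-0.82). edgeR called 0 of the 4 Tcstv family genes, DESeq2 called 0, and all 4 had an unadjusted p under 0.05 with lower values in the rescue-labelled libraries (median -0.58). Among all 23085 genes 2611 were lower at that edgeR p. Tcstv3, for example, was at 77.2 and 70.3 CPM in scramble, 21.8 and 25.9 in DKD and 47.2 and 56.1 in the rescue-labelled libraries. Among the other 51 2C genes 8 were lower and none was higher (DESeq2 likewise, 3 higher at an unadjusted p under 0.05), with 5 lower without rescue-labelled replicate 1 and 10 without replicate 2. They included Ddit4l, an inhibitor of mTOR signalling, at 81.2 and 74.9 CPM in scramble and 21.0 and 29.3 in the rescue-labelled libraries (-1.64 ± 0.14). Zfp352, a retrotransposed zinc finger gene active at the 2C stage, was at 324 and 288 CPM in scramble, 105 and 112 in DKD and 160 and 231 in the rescue-labelled libraries (-0.65 ± 0.12, adjusted p = 0.0017), under the 2-fold threshold. Sp110 was at 226 and 218 CPM in scramble, 149 and 160 in DKD and 224 and 213 in the rescue-labelled libraries (-0.02 ± 0.07). Dppa3 was at 1188 and 1367, 531 and 586, and 935 and 852 CPM in the same order (-0.52 ± 0.07). Dppa2 was at 98.1 and 88.1, 81.4 and 77.7, and 63.4 and 75.0 CPM (-0.43 ± 0.10).

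Rlim, the X-linked ubiquitin ligase that acts in imprinted X inactivation, and 2 oocyte genes also stayed lower. Rlim was at 870 and 898 CPM in scramble, 84.1 and 93.8 in DKD, 118 and 110 in Obox4 KD, 707 and 746 in Dux KD and 230 and 314 in the rescue-labelled libraries (-1.70 ± 0.10, adjusted p = 2.8e-08). The rescue-labelled level was thus 3.25-fold below scramble, above DKD (1.61 ± 0.10, adjusted p = 3.6e-08) and below Dux KD (-1.42 ± 0.10, adjusted p = 5.8e-07). No annotated Rlim transcript held a match to any of the 3 ASOs within 3 mismatches, but introns were not searched. Whether an ASO acted on Rlim was not tested. Nobox, an oocyte homeobox transcription factor, was at 95.5 and 105 CPM in scramble, 5.96 and 6.26 in DKD and 17.1 and 25.6 in the rescue-labelled libraries (-2.24 ± 0.15, adjusted p = 8.2e-08). Kbtbd8, a substrate adaptor of a cullin ubiquitin ligase, was at 1649 and 1853 CPM in scramble, 217 and 215 in DKD and 641 and 866 in the rescue-labelled libraries (-1.22 ± 0.10). These were the 2 members called among 72 oocyte factors (2.78%, beside 1.24% of all genes). In DKD 15 were called lower (20.8%, beside 3.16%).

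Ago2, Chd2, Ahnak and Fam136a were among the 312 genes that stayed higher. Ago2, the slicer Argonaute of RNA interference, was at 22.5 and 23.5 CPM in scramble, 69.5 and 71.2 in DKD and 59.9 and 58.3 in the rescue-labelled libraries (1.36 ± 0.09, adjusted p = 7.6e-08). Ago2 was at 61.4 and 55.9 in Dux KD and 57.5 and 59.2 in Obox4 KD, so each group other than scramble lay within 55.9 to 71.2 CPM. Chd2, a chromatin remodeller, was at 18.02 and 17.3 CPM in scramble, 139 and 120 in DKD and 48.9 and 56.2 in the rescue-labelled libraries (1.57 ± 0.11), below DKD by the direct test (-1.30 ± 0.10, adjusted p = 2.0e-07). Ahnak, a large scaffold protein, was at 10.6 and 8.18 CPM in scramble, 86.0 and 70.2 in DKD and 36.5 and 29.3 in the rescue-labelled libraries (1.80 ± 0.15). Ago2 thus showed no call between rescue-labelled and DKD libraries (-0.25 ± 0.09, adjusted p = 0.036), whereas Chd2 and Ahnak were called. Fam136a, a gene of a mitochondrial protein, was at 1.10 and 0.822 CPM in scramble, 5.53 and 5.67 in DKD and 6.27 and 5.72 in the rescue-labelled libraries (2.62 ± 0.23). Vamp1 was the gene nearest the fold threshold among those named (1.00 ± 0.10), and its call was lost under 7 alternatives, among them the omission of scramble replicate 2 (0.99) and of rescue-labelled replicate 2 (0.96).

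The largest rises were from near 0 in scramble. Klhl40, a muscle gene, was at 0.245 and 0 CPM in scramble, 8.42 and 8.43 in DKD and 3.51 and 2.89 in the rescue-labelled libraries (4.50 ± 0.47, adjusted p = 8.3e-06). Cyp2c65, a cytochrome P450, had 3 counts in the scramble libraries together, and the rescue-labelled libraries were 40.1-fold higher (95% counting interval 13.6 to 196). Susd2 was at 0.826 and 0.164 CPM in scramble, 11.7 and 11.9 in DKD and 4.46 and 4.51 in the rescue-labelled libraries (3.06 ± 0.36). All 3 lay between scramble and DKD. Rab29, a small GTPase, was instead at 0.398 and 0.534 CPM in scramble, 2.60 and 1.57 in DKD and 4.04 and 3.49 in the rescue-labelled libraries (3.03 ± 0.39), with no call between rescue-labelled and DKD (0.83 ± 0.31, adjusted p = 0.053).

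Noc2l, Nop56 and Mdn1 had risen in DKD and were back near the scramble level. Noc2l, a factor of ribosome assembly, was at 35.5 and 31.4 CPM in scramble, 118 and 103 in DKD and 31.8 and 35.3 in the rescue-labelled libraries. Nop56, a core protein of box C/D snoRNPs, was at 69.3 and 69.0 CPM in scramble, 155 and 141 in DKD and 66.5 and 70.1 in the rescue-labelled libraries. In both genes the scramble and rescue-labelled libraries overlapped and the DKD libraries stood apart (-1.72 ± 0.11 and -1.12 ± 0.08 for rescue-labelled against DKD). Mdn1, an AAA ATPase of large subunit maturation, was at 81.4 and 72.0 CPM in scramble, 273 and 244 in DKD and 93.8 and 109 in the rescue-labelled libraries (-1.35 ± 0.10 against DKD). In the ribosome biogenesis list of 40 genes, 9 (22.5%, beside 8.42% of all genes) were higher in DKD and 3 (7.5%, beside 3.27%) were lower in rescue-labelled than in DKD libraries.

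Genes that had fallen in DKD and returned included genes of the oocyte. Rfpl4, a RING finger protein of oocytes, was at 1689 and 1739 CPM in scramble, 483 and 485 in DKD and 1418 and 1349 in the rescue-labelled libraries (1.51 ± 0.06 against DKD, adjusted p = 8.1e-11). Obox5, a relative of Obox4 expressed in oocytes, was at 1663 and 1684 CPM in scramble, 392 and 477 in DKD and 1064 and 1130 in the rescue-labelled libraries (1.34 ± 0.08 against DKD). Bcl2l10, an anti-apoptotic protein of oocytes, was at 1113 and 1248 CPM in scramble, 412 and 451 in DKD and 997 and 971 in the rescue-labelled libraries. All 3 remained below scramble without overlap, by less than 2-fold. Obox5 in the rescue-labelled libraries was close to its level in Dux KD (1004 and 1121) and Obox4 KD (998 and 1047). Of the 72 oocyte factors 12 (16.7%, beside 1.1% of all genes) were higher in rescue-labelled than in DKD libraries and 0 lower, and of the 7 other Obox genes 4 (57.1%) were higher and 1 (14.3%, beside 3.27%) lower.

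The newly changed genes that also differed from DKD were led by short transcripts. Of the 99, 32 were also called against DKD in the same direction, 30 lower and 2 higher. The median summed exon length was 396 bases for those 30 lower genes, 1044 for all 81 newly lower genes, 1431 for genes that stayed lower and 3176 for all genes tested. In the gene rows of the repeat table, 50 of the 81 lower and 17 of the 18 higher newly changed genes were called in the same direction, and the count of newly changed genes was 182. The count was 52 without scramble replicate 1, 149 without DKD replicate 1 and 170 without rescue-labelled replicate 2.

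**Figure D3:**
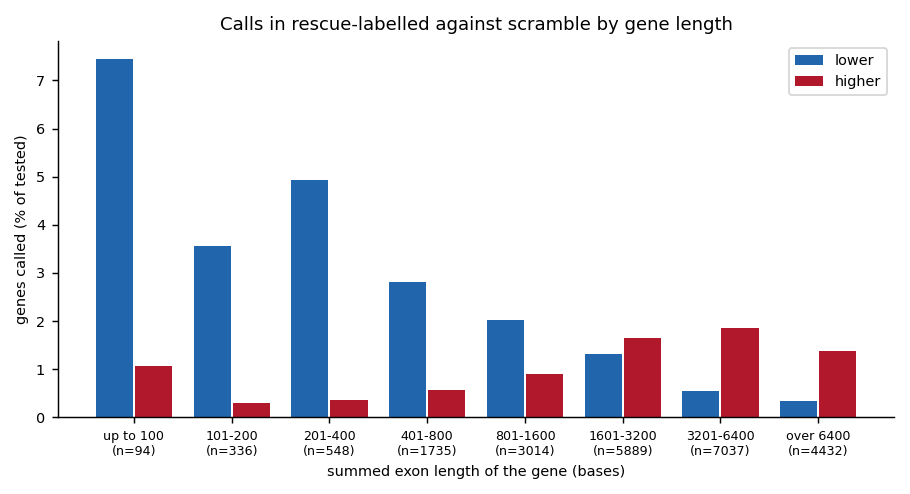
Percent of genes tested that were called lower (blue) or higher (red) in the rescue-labelled libraries against scramble, by summed exon length of the gene in bases, with the number of genes tested under each bar pair. The lower calls went from 7.45% up to 100 bases to 0.338% over 6400 bases.

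Lower calls were more frequent among short genes than among long ones, although not in strict order of length. They made up 7.45% of the 94 genes of up to 100 bases, 3.57% of those of 101 to 200 bases, 4.93% of those of 201 to 400 bases, 2.82% of those of 401 to 800 bases, 1.31% of those of 1601 to 3200 bases and 0.338% of those over 6400 bases. The median log2 change in these bins was -0.43, -0.20, -0.36, -0.16, 0.04 and 0.04. In the gene rows of the repeat table the lower calls were 3.61%, 3.60%, 5.31%, 4.30%, 1.91% and 0.345%, so the shortest bins were no longer the highest, and the median of the bin of 101 to 200 bases was 0.05. The same bins had median changes of 0.08, 0.07, -0.08, -0.10, 0.11 and -0.06 in DKD against scramble. The fragment lengths behind these libraries are not given in the sources used here, and their part in the result was not tested.

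Snrpf, which encodes the Sm protein F of spliceosomal snRNPs, was lower in DKD and fell further in the rescue-labelled libraries. Snrpf (chr10:93583029-93589706, minus strand) was at 48.6 and 46.9 CPM in scramble, 18.6 and 18.8 in DKD, 25.9 and 24.5 in Dux KD, 30.7 and 35.8 in Obox4 KD and 0.344 and 0.698 in the rescue-labelled libraries. Rescue-labelled values were far below those of the other 8 libraries, 94.6-fold below the scramble mean (-6.56 ± 0.19, adjusted p = 9.0e-13), and below DKD by 5.21 ± 0.20 on the log2 scale. In the gene rows of the repeat table Snrpf was at 49.1 and 47.4 CPM in scramble and 0.330 and 0.708 in the rescue-labelled libraries. No annotated Snrpf transcript held a match to an ASO within 3 mismatches, and introns were not searched. Of the other 35 splicing genes tested none was called, DESeq2 called 1 of the 36, and of all 36 there were 16 lower and 1 higher at an unadjusted p under 0.05. Among all 23085 genes 2611 were lower and 3028 higher at that edgeR p.

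Mitochondrial tRNA genes were lower in the rescue-labelled libraries for uniquely mapped reads. Of 17 tested 7 were lower (median of the 17 -0.84, and 0.01 in DKD), and the same number was lower than DKD in the direct test. Over all genes 1.24% were lower than scramble and 3.27% lower than DKD. The tRNA gene mt-Tc was at 8.08 and 6.94 CPM in scramble, 8.28 and 6.82 in DKD and 0.215 and 0.245 in the rescue-labelled libraries (-5.02 ± 0.28, adjusted p = 1.3e-08). The tRNA gene mt-Ts2 was at 7.19 and 5.79 CPM in scramble, 4.68 and 4.69 in DKD and 0.143 and 0.189 in the rescue-labelled libraries (-5.29 ± 0.32). Rescue-labelled values were below those of the other 8 libraries for both genes. For mt-Th the rescue-labelled libraries held 1 count together, and the scramble libraries were 420-fold higher (95% counting interval 74.4 to 16700). In the gene rows of the repeat table, however, mt-Th was at 21.2 and 19.4 CPM in scramble and 14.9 and 17.8 in the rescue-labelled libraries (-0.31, adjusted p = 0.47), mt-Tn was not called either (-0.51), and 3 of 17 tRNA genes remained lower, mt-Tc at 9.02 and 7.73 against 1.07 and 1.202 CPM and mt-Ts2 and mt-Tl2 (-4.59 and -2.36). Of the 13 mitochondrial mRNAs edgeR and DESeq2 called 0, with 8 lower at an unadjusted p under 0.05 (median -0.26). Among all 23085 genes 2611 were lower at that edgeR p.

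Replication-dependent histone H2A genes of the Hist1 cluster, whose short mRNAs end in a stem-loop in place of a poly(A) tail, were lower as well. Of 13 Hist1h2a genes tested 8 were lower than scramble (median -1.66, and -0.26 in DKD), and 8 were lower than DKD, beside 1.24% and 3.27% of all genes. Hist1h2an was at 28.5 and 33.7 CPM in scramble, 19.2 and 22.0 in DKD, 16.5 and 13.4 in Dux KD and 5.45 and 7.80 in the rescue-labelled libraries (-2.24 ± 0.16, adjusted p = 1.6e-07). Hist1h2ac was at 33.7 and 38.8 CPM in scramble, 21.7 and 24.4 in DKD and 10.9 and 9.61 in the rescue-labelled libraries (-1.82 ± 0.13). Both genes were lowest in the rescue-labelled libraries. The count ran from 7 to 10 over the alternatives, 10 in the gene rows of the repeat table. Medians of the Hist1h2b genes (14 tested) and of the Hist1h3 and Hist1h4 genes (19 tested) were 0.10 and -0.10.

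Rows of Lars2, which encodes the mitochondrial leucyl-tRNA synthetase, and of a few abundant noncoding annotations shared the fall. Which RNA gave the reads of these rows was not tested, so a fall of the Lars2 mRNA is not shown. Lars2 was at 987 and 762 CPM in scramble, 595 and 593 in DKD and 172 and 156 in the rescue-labelled libraries (-2.41 ± 0.17, adjusted p = 1.2e-07). The most abundant newly changed gene, CT010467.1, named after its values were seen as were Mir6236 and Rn7s2, was at 38414 and 19550 CPM in scramble, 15102 and 17167 in DKD and 4847 and 4513 in the rescue-labelled libraries (-2.63 ± 0.24). Mir6236 was at 1115 and 738 CPM in scramble, 821 and 902 in DKD and 239 and 224 in the rescue-labelled libraries (-2.0005 ± 0.19). The rescue-labelled libraries were below the other groups for all 3, and the scramble replicates of CT010467.1 stood apart from each other. Rn7s2, an annotated gene of the 7SL RNA of the signal recognition particle, fell by 1.23 ± 0.10 on the log2 scale but was not called in the gene rows of the repeat table (-0.38, adjusted p = 0.025). The mitochondrial ribosomal RNA mt-Rnr1 was at 24467 and 24259 CPM in scramble and 21510 and 23450 in the rescue-labelled libraries.

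Fgf1, a fibroblast growth factor and 2C gene, was newly changed among genes of ordinary length, at 49.7 and 46.9 CPM in scramble, 24.3 and 26.3 in DKD and 16.7 and 18.6 in the rescue-labelled libraries (-1.45 ± 0.11, adjusted p = 1.6e-07). The change in DKD (-0.93 ± 0.11) was just under the threshold, and the direct difference of -0.52 ± 0.11 was under 2-fold.

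Nefl was among the 18 newly higher genes and was also higher than in DKD. Nefl, the neurofilament light chain, was at 0.918 and 0.575 CPM in scramble, 1.71 and 1.51 in DKD and 4.16 and 5.29 in the rescue-labelled libraries (2.63 ± 0.32, and 1.54 ± 0.28 against DKD). Nefl was highest in the rescue-labelled libraries without overlap. Hes1, a Notch target, was at 10.8 and 6.99 CPM in scramble, 16.4 and 15.3 in DKD, 8.07 and 5.49 in Dux KD and 18.9 and 23.2 in the rescue-labelled libraries (1.23 ± 0.21), a call lost without scramble replicate 2 (0.96). Dusp6, a phosphatase of ERK, rose by a log2 change of 1.12 ± 0.21 and was likewise lost without scramble replicate 2 (0.86).

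By their labels the Dux KD and the rescue embryos both received the Dux ASO, and the difference between them was small in number. Of 23085 genes 105 (0.455%) were called, 17 (0.0736%) higher and 88 (0.381%) lower in the rescue-labelled libraries, a count that was 25 without Dux KD replicate 1, 56 without Dux KD replicate 2 and 34 with only the 4 libraries fitted. Duxf3 (1.29 ± 0.27, adjusted p = 0.0094), Zscan4b (1.63 ± 0.29, adjusted p = 0.0032), Nefl (1.43 ± 0.29) and Hes1 (1.62 ± 0.21) were among the higher genes. Zscan4b was the 1 member of the 6 Zscan4 genes called, with Zscan4c at 0.83 ± 0.21 (adjusted p = 0.025). Snrpf (-5.64 ± 0.19), mt-Tc (-4.64 ± 0.28), Lars2 (-2.0004 ± 0.17), Hist1h2an (-1.18 ± 0.16) and Rlim (-1.42 ± 0.10) were among the lower ones.

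Outside the 2C families, 22 gene lists held 550 genes tested, of which 8 (1.45%) were higher and 6 (1.09%) lower than scramble, beside 1.43% and 1.24% of all genes. Lists with 0 calls by edgeR included 35 ZGA transcription factors and regulators (median -0.08), 40 ribosome biogenesis genes (-0.05), 37 chromatin genes (0.00), 36 cell cycle genes (-0.05), 28 germ line genes (0.16) and 16 heat shock genes (-0.26). DESeq2 also called 0 of these, and at an unadjusted p under 0.05 they had 11, 21, 18, 16, 12 and 11 genes. Among all 23085 genes 3028 were higher and 2611 lower at that edgeR p. The heat shock list had 1 higher and 10 lower, and the ribosome biogenesis list 8 higher and 13 lower. In DKD 10 germ line genes (35.7%, beside 8.42% of all genes) were higher and 1 (3.57%, beside 3.16%) lower, and 4 integrated stress response genes (15.4%) were higher. Of 29 interferon and nucleic acid sensing genes Irf9 and Eif2ak2 were higher (6.9%, beside 1.43% of all genes), and neither was called in the gene rows of the repeat table (0.91, adjusted p = 0.040, and 0.82, adjusted p = 0.17). Irf9, a subunit of the interferon-activated factor ISGF3, was at 2.66 and 3.00 CPM in scramble, 12.5 and 8.92 in DKD and 6.20 and 9.51 in the rescue-labelled libraries (1.47 ± 0.23, adjusted p = 0.00043, and 1.38 without scramble replicate 1, where it was not called). Of 23 trophectoderm and epithelial genes Aqp3, a water and glycerol channel, was higher at 0.948 and 1.19 CPM in scramble, 7.02 and 6.13 in DKD and 4.90 and 3.61 in the rescue-labelled libraries (2.01 ± 0.32, and 1.84 without scramble replicate 1, where it was not called), as was Krt18. Eif2ak2 and Krt18 lost the call without either scramble replicate (Eif2ak2 1.29 and 1.57, Krt18 1.13 in both), Eif2ak2 also without either rescue-labelled replicate (1.47 and 1.40) and Krt18 without replicate 2 (0.90). The single calls of the pluripotency, imprinted and p53 lists were as fragile. Tdgf1 (2.42) was not called without scramble replicate 1 (4.08), scramble replicate 2 (1.79) or rescue-labelled replicate 1 (2.23). Sfmbt2 (1.18) was not called without scramble replicate 1 (1.01), scramble replicate 2 (1.35) or rescue-labelled replicate 2 (0.98), and Pmaip1 (-1.004) not without scramble replicate 1 (-1.09), scramble replicate 2 (-0.92) or rescue-labelled replicate 1 (-0.80).

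**Figure D4:**
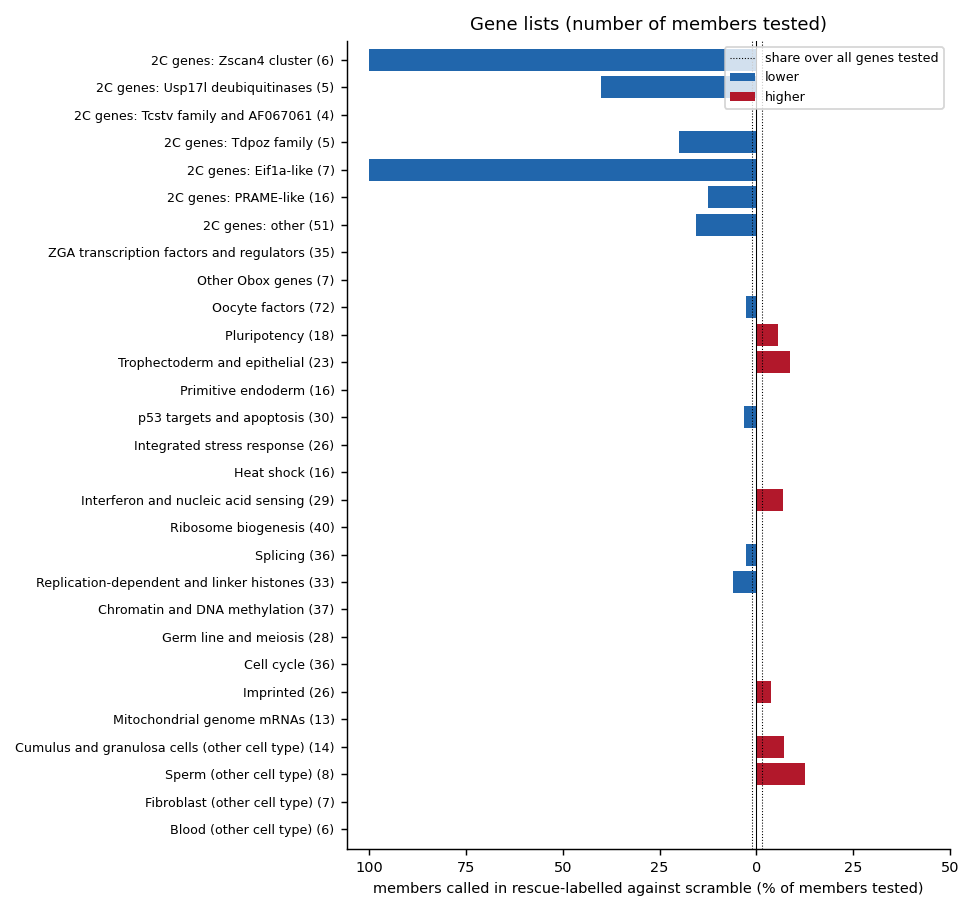
Percent of tested members called lower (blue, to the left) or higher (red, to the right) in the rescue-labelled libraries against scramble for 29 gene lists, with the number tested in brackets; dotted lines mark the shares over all genes (1.24% and 1.43%). The Zscan4 cluster (6 of 6) and the Eif1a-like genes (7 of 7) reach 100%.

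Markers of other cell types were summed per list. The summed level of the cumulus and granulosa list was 19.4 and 17.999 CPM in scramble and 20.7 and 17.4 in the rescue-labelled libraries, and that of the fibroblast list 16.4 and 14.96 against 19.4 and 20.8, without overlap. The blood list summed to 3.58 and 9.37 CPM in scramble and 5.46 and 6.42 in the rescue-labelled libraries, and the sperm list to 424 and 425 against 417 and 442. Their part in the results was not tested. No defining marker was at 0 in all 4 libraries, and the highest values were 6.43 CPM for cumulus, 2.38 for sperm, 0.948 for fibroblast and 1.84 for blood markers. Single calls were Star among 14 cumulus genes (1.21 ± 0.27) and Acrv1 among 8 sperm genes (1.71 ± 0.36), neither of which was called without scramble replicate 2 (0.80 and 1.79) or rescue-labelled replicate 2 (1.14 and 1.60), Star also not without rescue-labelled replicate 1 (1.27) and Acrv1 not without scramble replicate 1 (1.61).

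MERVL-int, the internal part of MERVL, was not called lower in the rescue-labelled libraries, and the 2 replicates differed. MERVL-int was at 343541 and 297404 CPM of all repeat counts in scramble, 132238 and 157123 in DKD, 156207 and 156640 in Dux KD and 208875 and 320719 in the rescue-labelled libraries. The rescue-labelled libraries were above DKD and overlapped scramble (-0.28 ± 0.18, adjusted p = 0.39, against -1.15 ± 0.18, adjusted p = 0.00098, in DKD, with a direct difference of 0.87 ± 0.18, adjusted p = 0.0098). MT2_Mm was at 31529 and 25406 CPM of repeats in scramble, 13629 and 15602 in DKD and 17872 and 28351 in the rescue-labelled libraries (-0.30 ± 0.17). The major satellite GSAT_MM was at 5804 and 4733 CPM of repeats in scramble, 2002 and 2041 in DKD and 2481 and 5939 in the rescue-labelled libraries. In all 3 names rescue-labelled replicate 2 was near scramble and replicate 1 nearer to DKD.

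Of 1057 repeat names 4 (0.378%) were called against scramble, all lower, in contrast to 21 (1.99%) in DKD, 10 (0.946%) higher and 11 (1.04%) lower. With library sizes taken from the gene table the median change of all repeats moved from 0.01 to -0.21 and 15 were called, 2 higher and 13 lower. DESeq2 called 2 higher and 4 lower, and at an unadjusted p under 0.05 edgeR had 135 higher and 132 lower. L1_Mm, a LINE-1 name, was at 2612 and 1993 CPM of repeats in scramble, 2124 and 2387 in DKD and 753 and 749 in the rescue-labelled libraries (-1.62 ± 0.21, adjusted p = 0.00030, and -1.59 ± 0.21 against DKD). It was the 1 of these 4 names that was also called against DKD. ERVB4_2-LTR_MM (-1.55 ± 0.13) and UCON31 (-1.54 ± 0.21) stayed changed from DKD, and LTRIS4B (-1.59 ± 0.22) was newly changed, a call lost without scramble replicate 1 (-1.35). With gene-table scaling the log2 change of L1_Mm was -1.83, against the median of -0.21.

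MTA_Mm-int, an internal repeat of the MT class of retrotransposons transcribed in oocytes, was higher in the rescue-labelled libraries than in DKD. It was at 288602 and 258914 CPM of repeats in scramble, 200379 and 230261 in DKD, 222985 and 243163 in Dux KD and 454102 and 431774 in the rescue-labelled libraries. The rescue-labelled libraries were the highest of all (0.69 ± 0.12, adjusted p = 0.0018, against scramble, under 2-fold, and 1.04 ± 0.12 against DKD, one of 5 repeats called, 0.473%). MTA_Mm-int takes a large part of the repeat counts, and its log2 change with gene-table scaling was 0.47 against scramble and 0.90 against DKD. IAPEz-int, the internal part of an intracisternal A particle, was at 3130 and 2949 CPM of repeats in scramble, 6616 and 6216 in DKD and 4886 and 5930 in the rescue-labelled libraries (0.83 ± 0.08, and 1.08 ± 0.08 in DKD). RLTR13B2, a long terminal repeat, was at 104 and 83.0 CPM of repeats in scramble, 174 and 224 in DKD and 115 and 164 in the rescue-labelled libraries (0.57 ± 0.18, adjusted p = 0.057). In DKD against scramble RLTR13B2 was called higher (1.08 ± 0.18, adjusted p = 0.0012). RLTR13B1 (0.19 ± 0.09), RLTR9E (-0.29 ± 0.06) and RLTR9D (-0.66 ± 0.08, adjusted p = 0.00019) were not called in the rescue-labelled libraries against scramble. Their changes in DKD were 0.32 ± 0.09, 0.04 ± 0.07 and -0.83 ± 0.08.

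**Figure D5:**
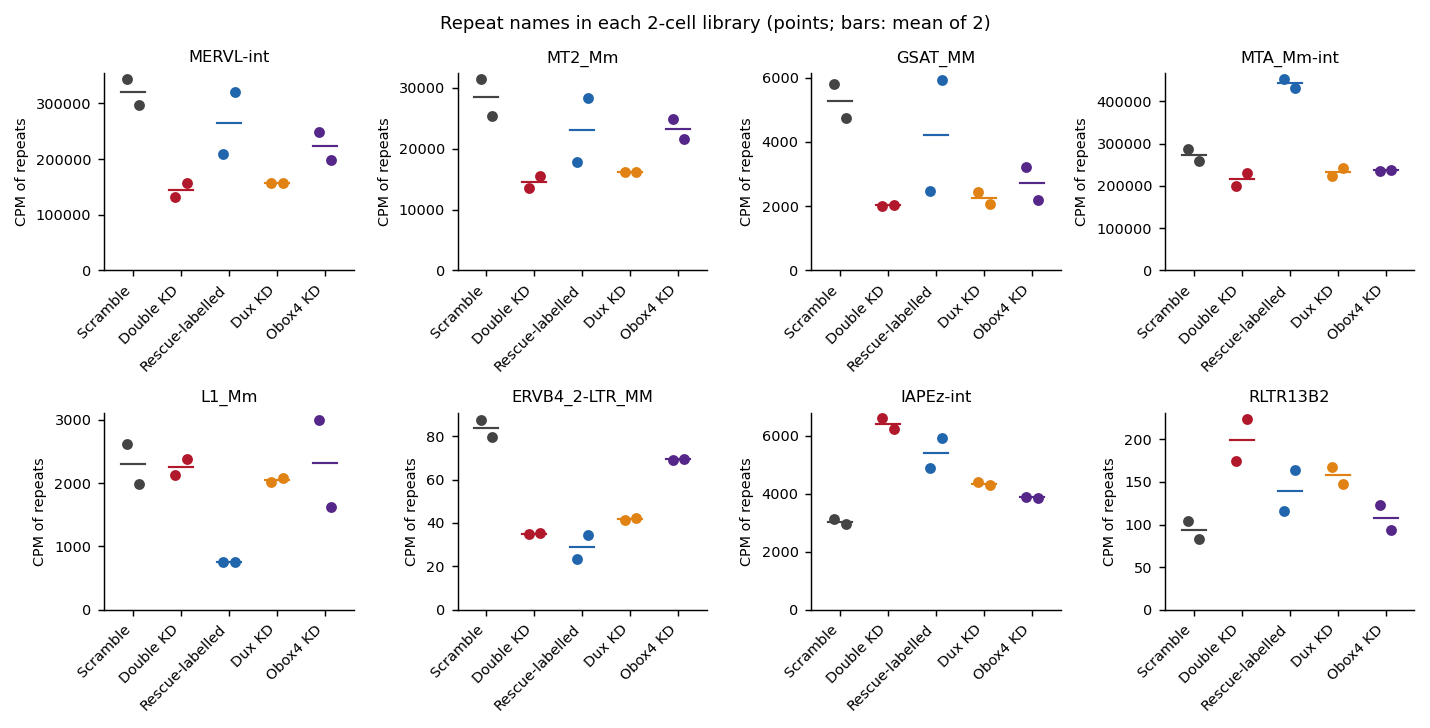
Level of 8 repeat names in each of the 10 2C libraries, as CPM of all repeat counts on a linear axis from 0; points are libraries and bars the mean of 2. L1_Mm is lowest and MTA_Mm-int highest in the rescue-labelled libraries (753 and 749, and 454102 and 431774 CPM of repeats), and the 2 rescue-labelled libraries of MERVL-int lie apart (208875 and 320719).

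Genes raised by OBOX4 in mouse embryonic stem cells (mESCs) gave a list from another experiment. After 48 h of Obox4 induction 735 genes of 18625 (3.95%) were called against 0 h. The count was 397 to 553 when any 1 of the 6 libraries was left out. It was 373 with the replicate number as a block, a pairing that the labels do not state. The 628 (3.37%) higher genes formed the list, and 585 of them were tested in 2C embryos. In the rescue-labelled libraries 54 (9.23%) of the 585 were lower than scramble and 15 (2.56%) were higher, beside 1.24% and 1.43% of all genes. In DKD 82 (14.0%) were lower and 50 (8.55%) higher, beside 3.16% and 8.42%. Of the 82, 50 stayed lower and 8 returned by the direct test. The direct comparison with DKD called 39 (6.67%) higher and 17 (2.91%) lower, beside 1.1% and 3.27% of all genes. With the block 310 genes were higher, 296 of them tested in 2C embryos, of which 34 (11.5%) were lower and 8 (2.7%) higher than scramble in the rescue-labelled libraries, and 28 (9.46%) were higher and 7 (2.36%) lower than in DKD. The median log2 change of the 585 against scramble was 0.00, so the list as a whole lay at the median of all genes (0.03).

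Gene starts were compared with peaks of 3xFLAG-OBOX4 and 3xFLAG-DUX in mESCs. An OBOX4 peak in at least 2 of 3 replicates lay within 3000 bases of the start of 31.4% of all genes tested, and a peak of the 1 DUX list near 1.56%. Of the 205 genes that stayed lower, 44 (21.5%) had a DUX peak and 30 (14.6%) an OBOX4 peak. Of the 312 genes that stayed higher, 2 (0.641%) had a DUX peak and 73 (23.4%) an OBOX4 peak. Of the 150 genes that returned from lower, 9 (6.0%) had a DUX peak and 43 (28.7%) an OBOX4 peak. Genes that stayed lower thus held the largest share with a DUX peak and the smallest with an OBOX4 peak of these classes. They include gene copies such as the Zscan4 and Eif1a-like genes, which are not separate examples. At Zscan4d this rule found a DUX peak (enrichment 9.51) and no OBOX4 peak. The paper reports OBOX4 sites that overlap those of DUX at that locus. The newly lower genes had an OBOX4 peak in 44.4% and a DUX peak in 11.1%, which became 39.2% and 2.7% without the mitochondrial genome. The DUX peaks at single genes had an enrichment of 16.0 at Zscan4a and 7.38 at Zscan4c, and those genes had no OBOX4 peak, while Rlim and Snrpf had an OBOX4 peak (enrichment 5.97 and 5.39) and no DUX peak.

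The promoters of the genes that stayed lower were searched on both strands for 6 strings from homeodomain motifs. TGATT followed by any 2 bases and ATCA occurred in 66 of 27025 genes with a RefSeq promoter window of GRCm38.p6 (0.244%), in 22 of 14151 genes tested (0.155%) and in 4 of the 66 genes that stayed lower and have such a window (6.06%). All 4 were Zscan4 genes, whose near-identical promoters are not separate examples. The windows are shown because they are the sequence that these 4 genes share, in the direction of transcription and with the match, which is on the opposite strand, in capitals.
Zscan4b (chr7:10905122-10905150, minus strand): caggaggttTGATAGAATCActgtgtgaa
Zscan4c (chr7:11005622-11005650, plus strand): caggagtttTGATAGAATCActgtgtgaa
Zscan4d (chr7:11166254-11166282, minus strand): caggaggttTGATAGAATCActgtgtgaa
Zscan4f (chr7:11397815-11397843, plus strand): aaggagtttTGATAGAATCActgtgtgaa
GGATTA was found in 12 of the same 66 promoters (18.2%), beside 7.58% of the genes tested, and its longer form GGGATTA in 6 (9.09%, beside 2.46%). AATCAATC was in 0 of the 66 and 0.565% of the genes tested, and the forms of the longer string with CA, or with any base and A, in the middle were in 0 of the 66 and in 0% and 0.0141% of the genes tested. A match is a run of letters in the window and was not tested as a binding site.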

How the data were processed

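RNA-seq libraries of 5 groups of 2C embryos (10 libraries), 9 libraries of an mESC induction series and 4 peak lists were used. Per the labels and methods, the authors trimmed reads with fastp (0.23.2), aligned them to GRCm38.p6 with STAR (2.7.9a) and counted them with featureCounts (2.0.1). The deposited gene values are counts of uniquely mapped reads. The deposited repeat values are expected counts, for which the authors counted reads of several places in part, and were summed per repeat name and rounded. For peak lists, the authors used Bowtie2 (2.4.1) and MACS3 (3.0.0a6). The deposited columns hold the fold enrichment (a ratio), −log10 p and q, and a score.

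The gene and the repeat table each had a fit in edgeR (4.0.16, R 4.3.3) after its low-count filter, with TMM scaling and 1 quasi-likelihood model over all 5 groups. Calls needed at least a 2-fold change and p values, adjusted after Benjamini and Hochberg, of 0.01 or less. CPM is scaled by TMM, and ± is the SE of the log2 fold change. With 2 libraries a group the tests lean on the shared spread. The code was tested on simulated data.

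Members, the 29 lists and tests were chosen with earlier results of these data known. Named genes are Duxf3, the Obox4 rows, Dppa2, Dppa3, Sp110, Zscan4d, Zfp352 and 6 repeats, up to 15 largest changes each way (mean count at least 20, no clone names), 4 genes a list by p, up to 8 stayed or newly changed genes each way by p, up to 6 returned genes each way, up to 5 against Dux KD, and genes with an ASO match. CT010467.1, Mir6236, Rn7s2 and the tRNA and H2A families fall outside it. Symbols were found for 55141 of 55487 gene rows. Replicates were no duplicates (r of log2 CPM 0.979 to 0.987). Same-numbered 2C libraries did not deviate together (r -0.041 to 0.059), so those numbers gave no sign of a pairing. With 2 libraries a group this cannot exclude that samples of one number were handled together. In mESCs the 3 same-numbered pairs at 0 h and 48 h had r 0.574, 0.343 and 0.159. Pairs of unlike number ran from -0.484 to 0.308, the latter for replicate 2 at 0 h with replicate 3 at 48 h. A pairing by number in mESCs is therefore uncertain. Alternatives were DESeq2 (1.42.0), its size factors, no filter, a replicate block, a looser threshold, only the groups compared, the gene rows of the repeat table (multi-mapping reads in fractions, and reads over a gene and a repeat possibly assigned differently), gene-table scaling of repeats, and each library left out. A gene that the rule names is not reported here.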

Additional observations from a re-analysis of the deposited data

How the results depend on the processing

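With 2 libraries a group, the counts of calls rested on single libraries. Genes called in rescue-labelled against scramble libraries ran from 321 to 728 when each library was left out, DKD against scramble from 1624 to 2353, rescue-labelled against DKD from 466 to 1124, rescue-labelled against Dux KD from 25 to 127, stayed changed genes from 269 to 558 and newly changed genes from 52 to 170. For repeats the ranges were 4 to 8, 11 to 15 and 1 to 4 for the first 3 comparisons, and for the mESC induction 397 to 553. With only the groups compared in the fit the counts were 296 (rescue-labelled against scramble), 34 (against Dux KD), 251 (stayed) and 45 (newly), where fewer samples give the spread. At an adjusted p of at most 0.05 with no minimum fold they were 2487, 8537, 6520 and 1677 in the order above, 1933 stayed, 513 newly, 119, 194 and 110 for repeats and 2266 in mESCs. Without the low-count filter 227 genes were called against Dux KD and 165 newly, and the gene rows of the repeat table gave 212 and 182. Repeats scaled by the gene table gave 15 calls against scramble, and DESeq2 gave 3 repeats against DKD (cause not tested). With a replicate block 562 genes were called against scramble and 373 in mESCs (735 without it), and the 2C numbers gave no sign of a pairing. DESeq2 called 667 genes against scramble and its size factors in edgeR 617. Among 80 named features called against scramble, 782 of 879 alternative values stayed called in the same direction, 97 (32 features) lost the call and 0 reversed. Depth limits genes near the low-count filter, where a few reads set the fold.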
